A study of Mus musculus with 8 samples.

Results

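The genes of intestinal chloride transport were followed in single cells of the small intestinal crypt, from mice with and without ieCtnnb1, an intestinal enhancer upstream of Ctnnb1, the gene for β-catenin. The set held 8 of the 27998 genes listed in the count matrices, matched by symbol. Of these, 5 serve secretion (Kcne3, Kcnq1, Cftr, Slc12a2 and Kcnn4) and 3 serve absorption (Slc26a3, Slc26a6 and Slc9a3). The set was chosen with the levels of these genes in these cells in view, so all values below are descriptions and none is a test.

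Cells carrying EpCAM, an epithelial surface protein, were sorted from crypts of adult mice on a C57BL/6 background and profiled with a 3′ droplet assay in which each captured transcript carries a unique molecular identifier (UMI). The control group, labelled WT, came, by the study's methods, from H11 i.enh mice, which keep ieCtnnb1 and carry a lacZ reporter driven by the core of that enhancer with a Shh promoter at the H11 locus. The KO group came from Ctnnb1 Δi.enh mice, a germline deletion of the enhancer present in all tissues, with the Ctnnb1 coding sequence left in place. The labels list 4 samples per genotype, while the study's methods describe a pool of fewer mice, all female, for each, and the sources were not reconciled. The cells of each genotype stand in 1 matrix with no map from cells to mice, and the reporter, the pool and the genotype cannot be told apart. No test between genotypes was therefore possible, and every interval below is a 95% interval for counting error only.

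After filtering, 13095 WT cells (median depth 6675 UMIs) and 8658 KO cells (median depth 8691.5 UMIs) remained. Cells were gated by marker genes that did not include the 8 genes, into cells resembling crypt base columnar stem cells (CBC), transit-amplifying cells (TAC), Paneth cells (PC), goblet cells (GC), enteroendocrine cells (EEC), tuft cells (TC), and immature and mature enterocytes (imEC and mEC). The gate named 84.6% of WT and 69.5% of KO cells, and in all 8 classes the leading genes held more markers of the class than of any other. Epcam was detected in 86.3% of WT and 83.5% of KO cells, and only 3 WT and 2 KO cells were immune-like. Levels are UMIs per 1000000 UMIs of the class (CPM). Ctnnb1 itself stood at 215 CPM in WT and 136 CPM in KO cells of the progenitor pool, which joins CBC-like and TAC-like cells. The matrices shared 57 cell barcodes, 29 of them among kept cells.

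Crypt cells secrete chloride by a relay across the cell. Slc12a2 (the Na-K-2Cl cotransporter NKCC1) loads chloride across the basolateral membrane, Cftr lets it out through the apical membrane, and basolateral potassium channels keep the driving force. One of those channels is built from the pore Kcnq1 and its subunit Kcne3, which holds it open, and another is the calcium-activated channel Kcnn4. Villus enterocytes run the reverse path, in which the sodium-hydrogen exchanger Slc9a3 (NHE3) works beside the chloride-bicarbonate exchangers Slc26a3 (DRA) and Slc26a6 (PAT1).

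Kcne3 spans chr7:100176502-100184869 on the plus strand of GRCm38, Kcnq1 chr7:143106362-143427042, Cftr chr6:18170687-18322768, Kcnn4 chr7:24370263-24386690, Slc26a3 chr12:31390871-31473917, Slc26a6 chr9:108853283-108913049 and Slc9a3 chr13:74121457-74169442, by GENCODE. RefSeq promoter windows of GRCm38.p6, each running from 250 bases before to 50 bases after a transcription start, were used for 6 of the 8 genes. No window was found for Kcnq1, and the position and any window of Slc12a2 are not reported here. The windows of Kcne3, Cftr and Slc26a3 are shown as examples of a gene higher in KO in every class (Kcne3), and of a secretory (Cftr) and an absorptive gene (Slc26a3) lower in KO in the class where each was highest. Capitals mark matches on either strand to CTTTGA (the core of a TCF/LEF site), AGGTCA (part of a nuclear receptor site), TGACATCA (a CRE-like site), CCAAT and TATAAA.
Kcne3, first start, chr7:100176420-100176719, plus strand: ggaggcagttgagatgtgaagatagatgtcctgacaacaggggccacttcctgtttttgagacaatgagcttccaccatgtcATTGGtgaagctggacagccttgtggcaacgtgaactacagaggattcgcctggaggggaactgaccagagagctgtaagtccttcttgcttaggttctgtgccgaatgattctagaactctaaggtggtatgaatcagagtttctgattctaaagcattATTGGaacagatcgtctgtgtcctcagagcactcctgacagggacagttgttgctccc
Kcne3, second start, chr7:100178433-100178732, plus strand: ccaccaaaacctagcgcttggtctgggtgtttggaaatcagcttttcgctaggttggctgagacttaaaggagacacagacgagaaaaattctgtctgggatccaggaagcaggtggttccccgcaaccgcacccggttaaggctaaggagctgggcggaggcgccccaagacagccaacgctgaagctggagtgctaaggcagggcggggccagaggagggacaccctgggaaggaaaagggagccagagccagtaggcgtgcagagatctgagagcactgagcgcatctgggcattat
Cftr, chr6:18170437-18170736, plus strand: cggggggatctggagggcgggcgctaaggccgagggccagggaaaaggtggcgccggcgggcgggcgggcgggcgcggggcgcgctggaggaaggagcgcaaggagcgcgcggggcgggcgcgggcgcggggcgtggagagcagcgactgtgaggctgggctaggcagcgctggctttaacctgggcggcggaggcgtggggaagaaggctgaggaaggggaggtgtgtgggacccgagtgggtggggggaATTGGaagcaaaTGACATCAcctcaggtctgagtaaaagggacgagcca
Slc26a3, chr12:31437969-31438268, plus strand: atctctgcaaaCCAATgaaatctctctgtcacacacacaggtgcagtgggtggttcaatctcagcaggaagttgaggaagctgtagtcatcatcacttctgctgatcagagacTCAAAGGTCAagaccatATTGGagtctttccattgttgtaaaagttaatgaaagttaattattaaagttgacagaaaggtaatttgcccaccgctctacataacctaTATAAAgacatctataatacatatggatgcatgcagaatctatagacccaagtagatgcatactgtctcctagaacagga

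The first Kcne3 window held 2 CCAAT matches on the opposite strand, and the second held none of the 5 motifs. The Cftr window was 71.3% G and C, against a median of 52.7% over all 32851 windows, and carried the CRE-like letters 13 bases after the start, a motif held by 3.62% of all windows. The Slc26a3 window was 39.3% G and C and had 5 matches. Its single CTTTGA match, in the opposite orientation, and its AGGTCA match overlap by 2 bases. CTTTGA occurred in 16.0% of all windows, AGGTCA in 16.3%, CCAAT in 37.4% and TATAAA in 13.6%. The Slc26a3 window lies inside the GENCODE gene, since GENCODE places the 5′ end of the gene farther upstream.

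**Figure D1:**
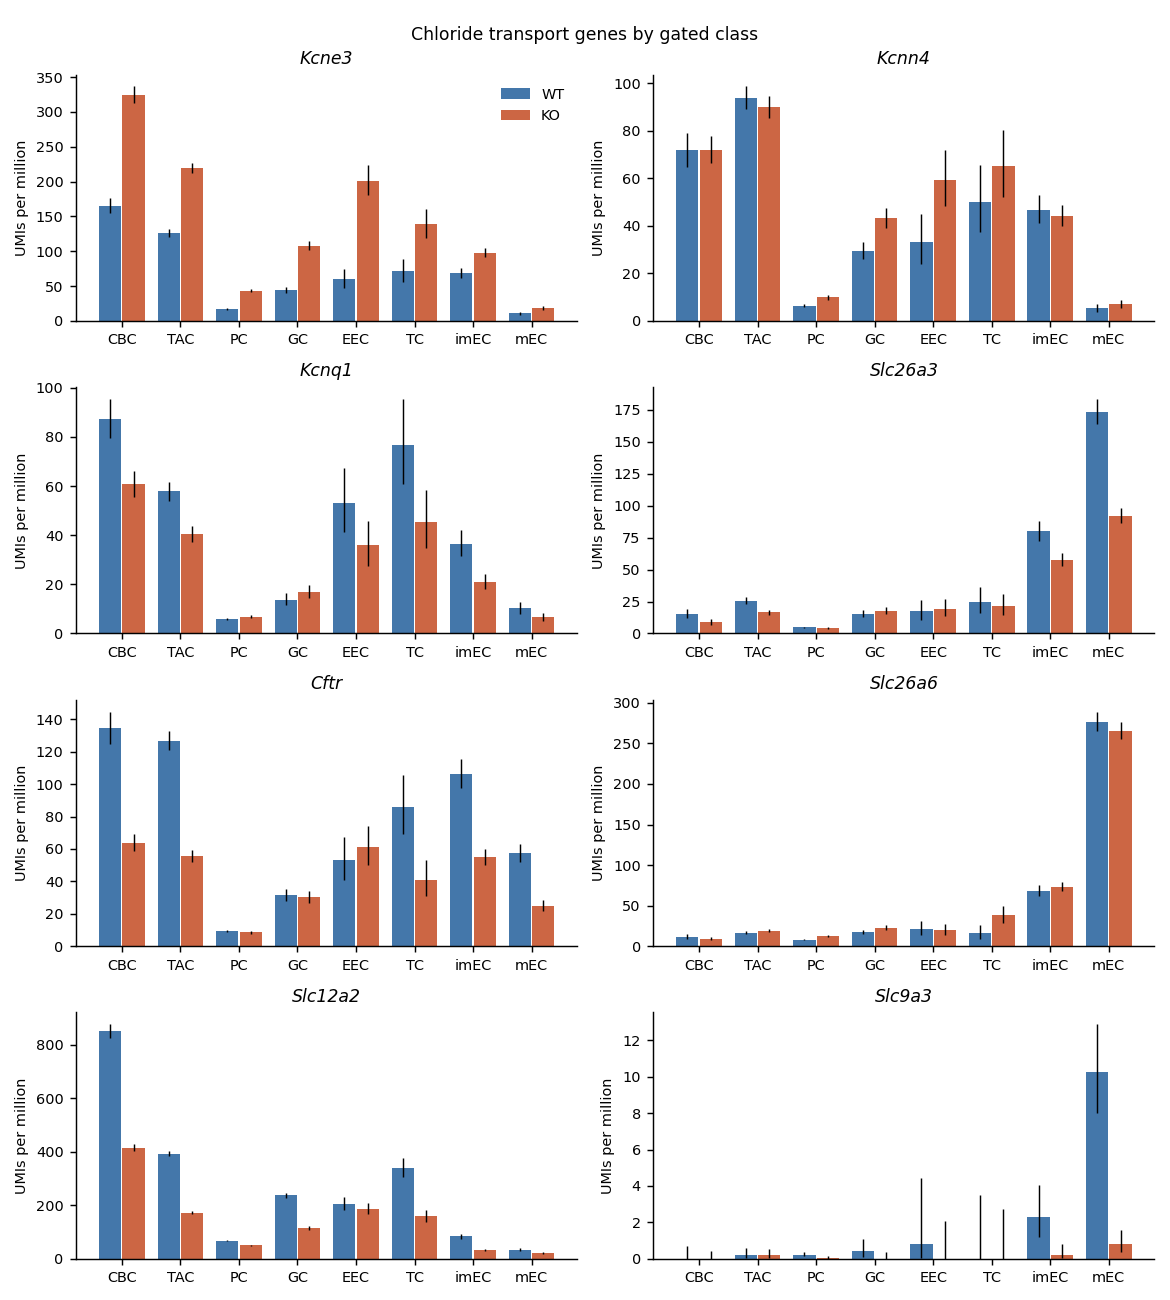
Level of each chloride transport gene, in CPM, in the 8 gated classes of the WT and KO matrices; bars are the values and lines the 95% counting intervals. Slc12a2 was highest in CBC-like cells (851 in WT, 415 in KO), Slc26a6 in mEC-like cells (277 and 266), and Kcne3 was higher in KO in every class.

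Across the classes the genes split into those highest in progenitors and those highest in enterocytes. Slc12a2, the chloride loader, was highest in CBC-like cells at 851 CPM in WT and 415 in KO. TAC-like cells held 392 and 173, and in KO the EEC-like level of 187 overlapped the TAC-like level. The lowest level was in mEC-like cells, at 34.0 in WT and 20.6 in KO. CBC-like and TAC-like cells together were 9.33-fold (WT) and 9.73-fold (KO) above the enterocyte pool, which joins imEC-like and mEC-like cells. These pool ratios depend on the mix of classes, which differed between the matrices. The progenitor pool held 591 CBC-like and 1666 TAC-like cells in WT, and 548 and 866 in KO. By class, CBC-like cells were 25.1-fold above mEC-like cells in WT and 20.2-fold in KO. Slc12a2 was among the 10 leading genes of CBC-like cells in both matrices.

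Kcne3 was also highest in CBC-like cells, at 166 in WT and 325 in KO, followed by 126 and 219 in TAC-like cells. Its lowest level was in mEC-like cells, at 10.7 in WT and 17.96 in KO. In KO the EEC-like level of 201 overlapped the TAC-like level within counting error, and in WT the EEC-like level was 59.4. Its partner Kcnq1 was highest in CBC-like cells, at 87.2 in WT and 60.8 in KO, and the TC-like level (76.6 and 45.5) overlapped that in both matrices. In mEC-like cells Kcnq1 stood at 10.2 and 6.52.

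Cftr differed less between progenitors and enterocytes than the other secretory genes. It reached 135 in WT and 63.9 in KO CBC-like cells, and stood at 106 and 54.9 in imEC-like cells and 57.4 and 24.9 in mEC-like cells. TC-like cells held 86.1 and 41.1, and PC-like cells, with the lowest level in both matrices, 9.16 and 8.55. Progenitors were 1.65-fold above enterocytes in WT and 1.50-fold in KO, the smallest contrast of the 5 secretory genes in each matrix. Among the KO classes, CBC-like, EEC-like, TAC-like and imEC-like cells did not differ in Cftr beyond the intervals of neighbours in that order. Kcnn4 differed from the other secretory genes in having its peak in the dividing TAC-like cells, at 93.7 in WT and 89.9 in KO, above CBC-like cells at 71.6 and 71.8, with intervals that did not overlap.

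The absorptive exchangers had the opposite order. Slc26a6 was highest in mEC-like cells, at 277 in WT and 266 in KO, and stood at 68.2 and 73.3 in imEC-like cells. CBC-like cells held 11.4 and 9.23. Slc26a3 was highest in mEC-like cells too, at 174 in WT and 92.0 in KO, and 79.9 and 57.6 in imEC-like cells. Slc9a3 was the lowest of the 3 absorptive genes, and mEC-like cells held 73 UMIs of it (10.2 CPM) in WT against 8 (0.803 CPM) in KO. In those cells 3 counts equal 0.421 CPM in WT and 0.301 in KO, so the KO level was near the limit of detection. No Slc9a3 UMI was found in the CBC-like or TC-like cells of either matrix. For the CBC-like cells a count of 0 allows up to 0.561 CPM in WT and 0.355 in KO.

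Free RNA in droplets gives UMIs of a gene in cells that do not express it, so low levels were set beside those of TC-like cells. Tuft cells are not known for the absorptive exchangers, and in them Slc26a3 stood at 24.6 (WT) and 21.7 (KO), against 25.5 and 16.5 in TAC-like cells. TC-like cells had a Slc26a3 UMI in 10.1% of WT cells at a median depth of 4401 UMIs, and in 26.3% of KO cells at 12147 UMIs. With every cell thinned to 1000 UMIs, the shares were 2.58% and 1.06%, against 14.2% and 9.62% in mEC-like cells (median depths of 5357.5 and 7348 UMIs). In progenitors the thinned Slc26a3 shares were 2.76% (2.12 to 3.52) and 1.14% (0.652 to 1.84), within the wide intervals of the TC-like shares. In CPM the level was lower in PC-like cells, at 4.88 and 4.48, but CPM depends on depth. The median depth of PC-like cells was 15574.5 UMIs in WT and 5716.5 in KO. Per cell, PC-like cells held 0.075 (WT) and 0.107 (KO) Slc26a3 UMIs, GC-like cells 0.087 and 0.264, and TC-like cells 0.164 and 0.305. Slc26a6 stood at 16.1 and 38.1 CPM in TC-like, 15.1 and 15.7 in progenitor and 7.98 and 12.0 in PC-like cells. How much of these low levels was free RNA was not tested.

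**Figure D2:**
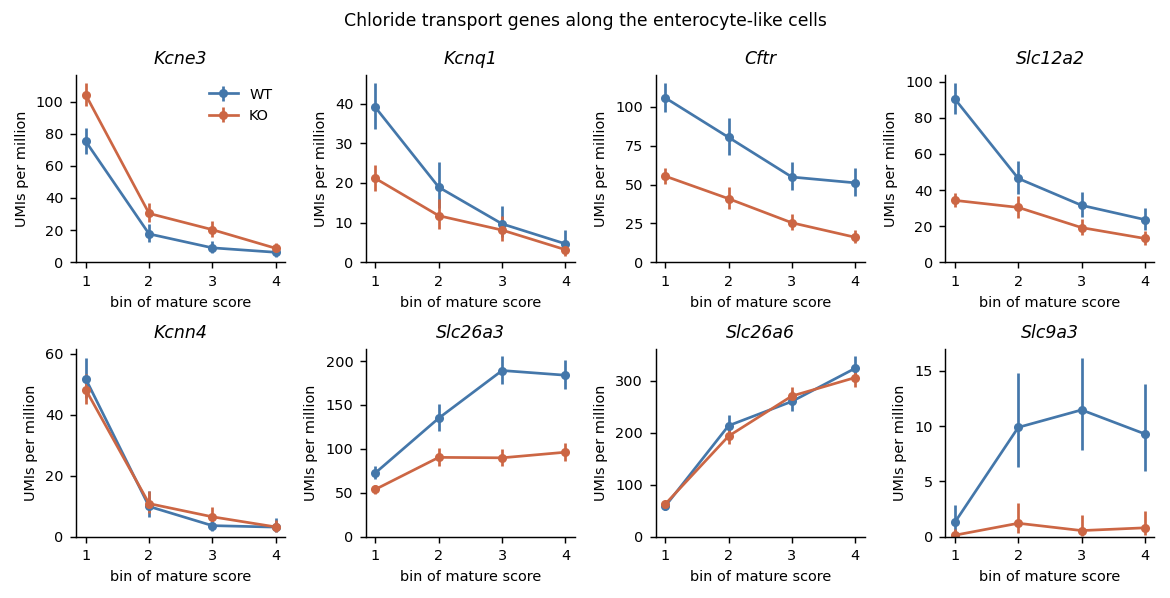
Level of each gene, in CPM, in 4 bins of enterocyte-like cells ordered by the mature enterocyte score, with 95% counting intervals, in WT and KO. Slc26a6 goes from 58.3 to 324 in WT and from 62.3 to 306 in KO, while Cftr goes from 106 to 51.1 and from 55.4 to 16.1.

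The cells of the enterocyte pool were also placed in 4 bins by the mature enterocyte score. The first bin held almost only imEC-like cells (483 of 484 in WT, 463 of 472 in KO) and the last held 0, so the end points largely restate the imEC-like and mEC-like levels. Slc26a6 went from 58.3 CPM in the least mature bin to 324 in the most mature bin of WT, and from 62.3 to 306 in KO. Slc26a3 stood at 72.6, 135, 189 and 184 over the 4 WT bins, and at 53.8, 90.2, 89.7 and 96.1 over the 4 KO bins. Cftr and Slc12a2 ran the other way, Slc12a2 from 90.4 to 23.6 in WT and from 34.3 to 13.2 in KO. The second KO bin was shallow, at a median of 2299 UMIs, against 5270 in the same WT bin.

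**Figure D3:**
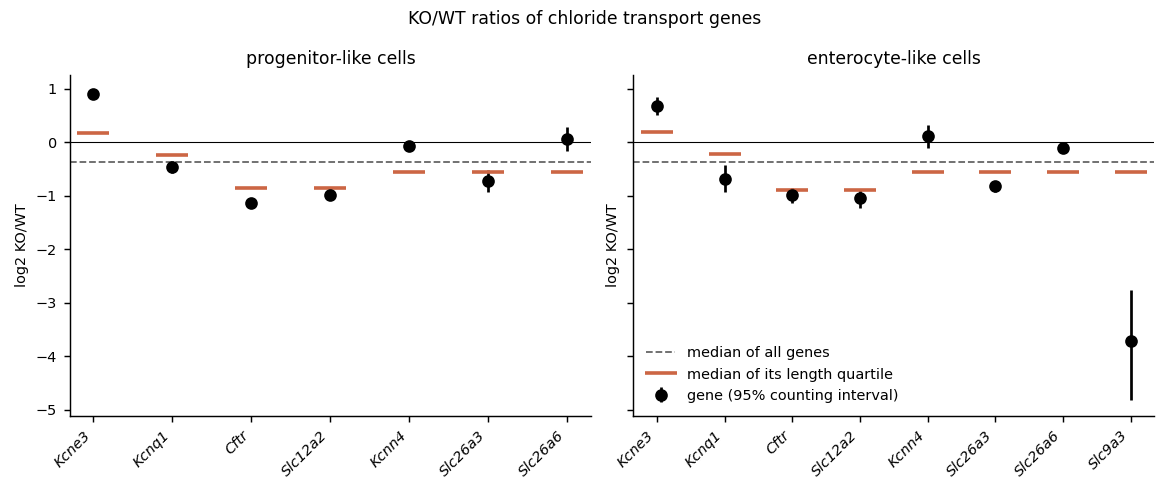
The log2 ratio of KO to WT level for each gene with at least 50 UMIs over both matrices, in the progenitor and enterocyte pools, with 95% counting intervals, beside the median of all genes tested (dashed) and the median of genes in the same exonic length quartile (bar). Kcne3 lies above both medians in both pools, and Slc9a3 lies below both in the enterocyte pool.

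Between the genotypes, 1 secretory gene was higher in KO while the channel and the cotransporter were lower. In the progenitor pool Kcne3 stood at 136 CPM in WT (2807 UMIs) and 256 in KO (6220 UMIs), a log2 ratio of 0.91 (0.85 to 0.98). Cftr stood at 129 in WT and 58.6 in KO (log2 ratio -1.14, interval -1.23 to -1.04). The levels of Slc12a2 were 511 and 257 (-0.99, -1.04 to -0.95). Those of Kcnq1 were 65.4 and 47.5 (-0.46, -0.58 to -0.35). Kcnn4 was at 88.0 and 83.6, with an interval for its ratio of -0.17 to 0.02 that spans 0. These directions hold for shares of the UMIs of the class: per cell, progenitors held 0.598 Kcnq1 UMIs in WT and 0.818 in KO. With clusters in place of the gate, under a stricter naming in which the WT and KO progenitors came from different kinds of cluster, the Slc12a2 ratio was 0.73.

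These ratios have to be read against all genes. Of the 11052 genes with at least 50 UMIs in progenitors, 0.525% were at least 2-fold higher in KO and 16.5% at least 2-fold lower, and the median ratio was -0.37. Of the 7 genes of the set tested there, 0 were at least 2-fold higher and 1, Cftr, was at least 2-fold lower. The median of the 5 secretory genes was -0.46. Kcne3 lay above 99.3% of all genes tested and Cftr above 10.8%.

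The KO/WT ratio also fell with transcript length. In progenitors the median ratio was 0.18 in the quartile of genes with the shortest exonic length, then -0.23, -0.55 and, in the longest quartile, -0.86, where 37.1% of genes were at least 2-fold lower. Kcne3, with 1779 exonic bases, is in the shortest quartile, and Cftr (7765) and Slc12a2 (10920) are in the longest. Against the medians of their own quartiles, Kcne3 stood 0.73 higher on the log2 scale, Cftr 0.28 lower and Slc12a2 0.13 lower. The part of length in these differences was not tested, and the ratios of Cftr and Slc12a2 lie close to the level that long genes had as a group. Kcnn4, with 5115 exonic bases, stood 0.48 above its quartile.

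**Figure D4:**
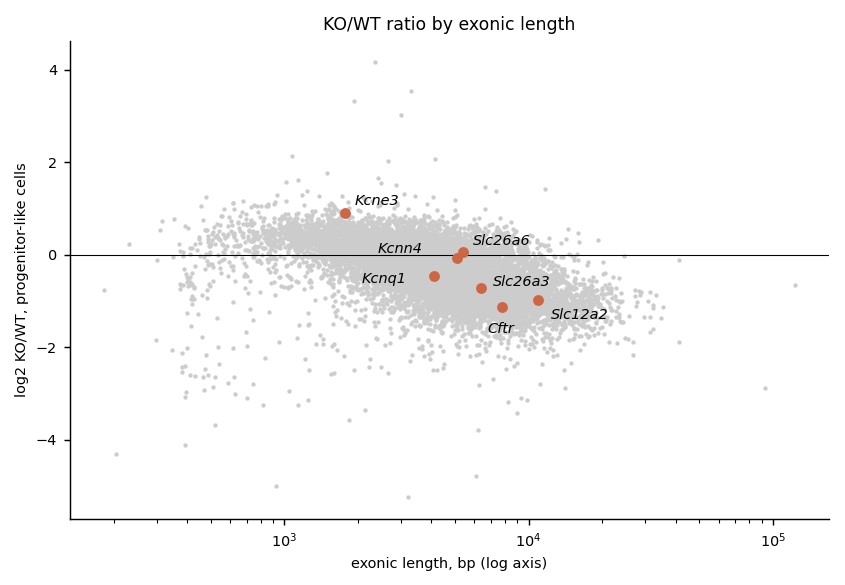
The log2 KO/WT ratio of every gene with at least 50 UMIs in the progenitor pool (grey) against its exonic length on a log axis, with the chloride transport genes marked. Ratios fall with length, and Kcne3 lies above most genes of its length while Cftr and Slc12a2 lie within the cloud of long genes.

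Kcne3 was higher in KO in 8 of 8 classes, with log2 ratios from 0.52 in imEC-like to 1.76 in EEC-like cells, and the counting interval lay above 0 in all 8. Among all genes tested, that interval lay above 0 for 16.3% of genes in mEC-like and 16.2% in CBC-like cells, for 18.3% in imEC-like and 19.7% in TAC-like cells, and for 23.6% (TC-like), 25% (PC-like), 26.7% (GC-like) and 28.8% (EEC-like) in the remaining classes. Intervals off 0 were therefore common for any gene at this depth, and the 8 classes share their matrices. The shortest length quartile, which holds Kcne3, had median ratios above 0 in every class, from 0.11 in mEC-like to 0.63 in EEC-like cells. Within that quartile, Kcne3 lay above 77.1% of genes in imEC-like, 89.0% in TC-like and 90.9% in mEC-like cells. In the other classes it lay above 96.1% to 99.1% of them. Per cell, Kcne3 went from 1.24 to 4.40 UMIs in progenitors, and the cells with at least 1 Kcne3 UMI from 62.0% to 88.7%. Thinned to 1000 UMIs per cell, the shares were 12.4% and 24.3%. KO progenitors were deeper, with a median of 16300 UMIs against 8592 in WT, which raises unthinned shares. EEC-like cells also differed in depth, with 258 WT cells at a median of 2787.5 UMIs and 117 KO cells at 13737. The median depths of GC-like cells were 5118 in WT and 14539.5 in KO. Median CBC and TAC marker scores were higher in KO EEC-like cells, at 0.09 and 0.25 against -0.32 and -0.46 in WT.

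Measured against its pore subunit, Kcne3 gave a larger share of UMIs in KO. In progenitors Kcne3 gave 67.5% (66.1 to 68.9) of the UMIs of Kcne3 and Kcnq1 together in WT and 84.3% (83.5 to 85.2) in KO. In CBC-like cells the shares were 65.5% and 84.2%, and in TC-like cells 48.1% and 75.3%. The WT and KO intervals did not overlap in any of the 8 classes. Kcnq1 (4093 exonic bases) is in the second length quartile and lay 0.23 below its median. The ratio of UMIs is not a ratio of proteins.

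Cftr and Slc12a2 were set against each other in the same way. In the progenitor pool Cftr gave 20.1% (19.5 to 20.8) of the UMIs of the pair in WT and 18.6% (17.7 to 19.4) in KO. Within it, the shares were 13.7% and 13.3% in CBC-like cells and 24.5% and 24.4% in TAC-like cells, with overlapping intervals. In PC-like cells they were 12.1% (11.3 to 13.0) and 14.7% (13.4 to 16.2). In GC-like cells the shares were 11.7% and 20.8%, where Slc12a2 was lower (-1.04) and Cftr was at 31.3 and 30.2 CPM. Slc12a2 had its ratio interval below 0 in 7 of 8 classes, from -1.34 in imEC-like to -0.42 in PC-like cells. The exception was EEC-like cells, at -0.14 (-0.38 to 0.10). Cftr had its interval below 0 in 5 of 8 classes, and in PC-like, GC-like and EEC-like cells the interval spanned 0. Among all genes tested, the interval lay below 0 for 53.7% of genes in TAC-like and 51.1% in mEC-like cells, for 49.1% in imEC-like and 46.5% in CBC-like cells, and for 41.3% (GC-like), 40.8% (PC-like), 26% (TC-like) and 24.1% (EEC-like) elsewhere. A lower level in KO was thus common among all genes. Per cell, progenitors held 1.18 (WT) and 1.01 (KO) Cftr UMIs and 4.67 and 4.42 Slc12a2 UMIs, with KO cells at the greater depth given above.

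Kcnq1 had its interval below 0 in 6 of 8 classes and above 0 in PC-like cells, at 0.23 (0.01 to 0.45). The PC-like cells of the KO matrix were shallower than those of WT, with median depths of 5716.5 and 15574.5 UMIs. Kcnq1 overlaps the antisense RNA Kcnq1ot1, which went from 48.7 to 6.58 CPM in progenitors. Kcnq1ot1 was counted as a gene of its own, with 1004 UMIs in WT and 160 in KO progenitors. Strand use in counting is not given in the sources used here, and whether any Kcnq1ot1 reads were counted as Kcnq1 was not tested. Kcnn4 was above the median of all genes in its class in 8 of 8 classes, and its interval lay above 0 in PC-like, GC-like and EEC-like cells. Slc26a6 had its interval above 0 in PC-like, GC-like and TC-like cells, where its level was at most 38.1 CPM.

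In enterocytes, Slc26a3 and Slc9a3 were lower in KO and Slc26a6 was close to its WT level. Slc26a3 stood at 134 CPM (1652 UMIs) in WT and 75.7 CPM (1435 UMIs) in KO, and its log2 ratio was -0.83 (-0.93 to -0.72). Slc9a3 had 85 UMIs in WT and 10 in KO, which is 6.90 and 0.527 CPM (-3.71, -4.82 to -2.76). Slc26a6 was at 189 and 175 (-0.11, -0.19 to -0.037). Cftr (-0.99) and Slc12a2 (-1.05) were lower in this pool as well, and Kcne3 was higher (0.68).

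Among the 10176 genes tested in enterocytes the median ratio was -0.37, 1.5% were at least 2-fold higher and 17.9% at least 2-fold lower. Of the 8 genes of the set, 0 were at least 2-fold higher and 2, Slc12a2 and Slc9a3, at least 2-fold lower. The median of the 3 absorptive genes was that of Slc26a3, -0.83. Only 0.0884% of genes had a lower ratio than Slc9a3. Slc26a3 lay 0.26 below the median of its length quartile and Slc26a6 0.45 above. Of the UMIs of Slc26a3 and Slc26a6 together, Slc26a3 gave 41.5% (40.0 to 43.1) in WT and 30.2% (28.9 to 31.6) in KO.

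**Figure D5:**
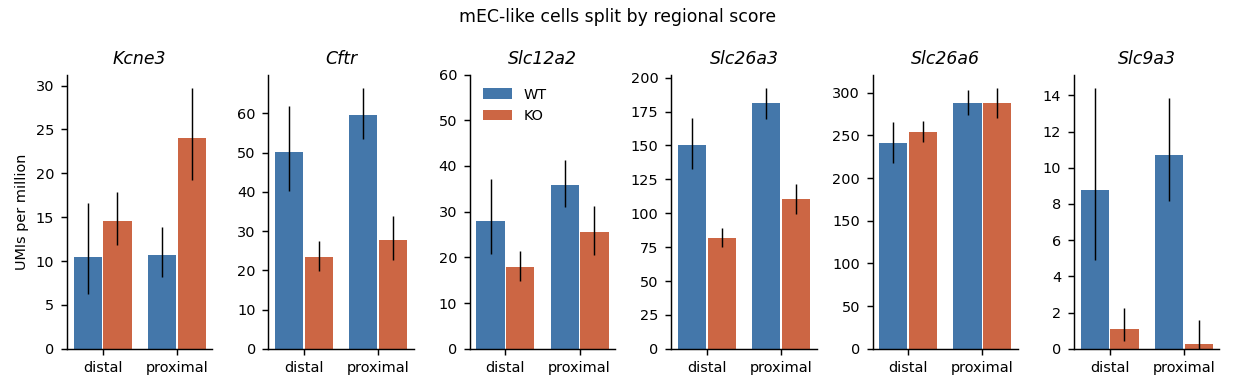
Level of 6 of the genes, in CPM with 95% counting intervals, in mEC-like cells split by whether the score of a distal gene list exceeded that of a proximal list. Slc26a3, Cftr and Slc9a3 were lower in KO on both sides of the split, and Slc26a6 was at 241 and 254 in distal-like and 288 and 288 in proximal-like cells.

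The matrices differed in region-like cells. Distal-like cells, which score higher for distal than for proximal small-intestinal genes, made up 26.6% of the mEC-like cells in WT and 70.5% in KO. The summed level of 7 distal genes in mEC-like cells was 4448 CPM in WT and 20945 in KO, led by the ileal bile acid binding protein Fabp6 (3077 and 18229), and all 7 were detected in both. The 7 proximal genes summed to 15488 and 13786 CPM, and Trpv6 was the proximal gene at 0 in KO, with a WT level of 0.140. Gata4 (45.9 and 19.2), Slc40a1 (44.6 and 9.03), S100g (480 and 113) and Fabp1 (-0.20) were lower in KO, Ckmt1 was higher (0.37), and the interval of Cybrd1 spanned 0. The region sampled and the genotype cannot be told apart.

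On both sides of the split Slc26a3, Cftr and Slc9a3 were lower in KO. The split left the matrices unlike in regional genes. Fabp6 stood at 12408 CPM in WT and 28099 in KO distal-like cells, and at 119 and 244 in proximal-like cells. S100g stood at 29.7 and 81.7 in distal-like cells, and at 622 and 170 in proximal-like cells. The median ratio of all genes tested was -0.36 in distal-like and -0.33 in proximal-like cells. Slc26a3 stood at 150 in WT and 82.1 in KO distal-like cells (-0.87, -1.09 to -0.65), and at 181 and 110 in proximal-like cells (-0.72, -0.89 to -0.55). Cftr had ratios of -1.11 in both. Slc9a3 had 15 and 7 UMIs in distal-like and 58 and 1 in proximal-like cells of WT and KO. Slc26a6 was at 241 and 254 in distal-like and at 288 and 288 in proximal-like cells. Kcne3 was at 10.7 in WT and 24.1 in KO proximal-like cells (1.17, 0.67 to 1.67), and at 10.5 and 14.6 in distal-like cells, where the interval of its ratio spans 0. Within each matrix, distal-like cells had less Slc26a3 than proximal-like cells, by 0.27 in WT and 0.42 in KO on the log2 scale, and less Slc26a6, by 0.26 and 0.18.

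The rest of the pathway was mostly lower in KO, as were most genes. Of 49 other chloride transport genes, grouped by role in a list chosen with these data in view, 36 could be tested in progenitors, where 0 were at least 2-fold higher (0.525% of all genes) and 8 at least 2-fold lower (16.5% of all genes). Their median was -0.60, against -0.37 over all genes. The 8 included the bicarbonate cotransporter Slc4a7, the potassium channel Kcnk5, the sodium channel subunit Scnn1a and the sulfate exchanger Slc26a2. The others were the kinase Oxsr1, which activates the cotransporter Slc12a2, the receptor Chrm3, the cyclase Adcy6 and the carbonic anhydrase Car2. Counts were low for Chrm3 (53 UMIs in WT, 14 in KO) and Car2 (35 and 15). Only the intervals of Oxsr1 (-1.68 to -1.26) and Chrm3 (-3.12 to -1.29) lay wholly past 2-fold. Of 36 tested in enterocytes, 1 was at least 2-fold higher, the nucleotide receptor P2ry2 at 1.79 and 3.95 CPM, against 1.5% of all genes. At least 2-fold lower were 7, a share near the 17.9% of all genes, and the median of -0.37 was that of all genes. The 7 were Slc4a7 (60.8 and 15.2), Kcnk5 (-1.10), the kinases Wnk1 (-1.05) and Oxsr1 (-1.49), the VIP receptor Vipr1 (-1.15), Adcy6 (-1.08) and Car2 (-1.12).

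The guanylin peptides, which open Cftr through the receptor Gucy2c, were among the higher genes in enterocytes. Guca2a went from 371 to 615 CPM (0.73) and Guca2b from 926 to 1273 (0.46), while Gucy2c went from 94.5 to 52.7 (-0.84). In progenitors all of them were lower in KO, Guca2a at -0.17, Guca2b at -0.09 and Gucy2c at -0.68. The median enterocyte ratio was 0.19 in the shortest and -0.90 in the longest quartile of exonic length. These genes were not set against their length quartiles. The exchanger scaffolds Slc9a3r1 (0.43) and Pdzk1 (0.67) were higher in KO in enterocytes, while Ezr was lower (-0.15). The interval of Pdzd3 spanned 0, and Slc9a3r2 had too few UMIs to be tested. Of the 9 scaffold and kinase genes tested in enterocytes, 2 had intervals above 0 and 6 below, with a median of -0.49.

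The genes whose levels over the 16 class-by-matrix points were most like each transport gene were named by correlation of log2 levels. Kcne3 was most like Ifitm2 (r = 0.98), Slc12a2 like the adrenergic receptor Adra2a (0.98), and Kcnn4 like Ccdc34 and the mitotic cyclin Ccnb2 (both 0.99). Slc26a6 was most like Erich4 (0.99) and Slc26a3 like Idh1 and the lipoprotein assembly factor Mttp (both 0.98). The points share libraries and cell classes, so these are descriptions of 16 values each. Among the set itself, Slc26a3 and Slc26a6 ran together (0.94), as did Kcne3 and Kcnn4 (0.92), while Slc12a2 and Slc26a6 ran apart (-0.70).

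The secretory genes were also counted in pairs in single progenitors. With cells thinned to 5000 UMIs, which left 1938 WT and 1311 KO progenitors, 37.98% of WT and 45.9% of KO cells had both a Kcne3 and a Slc12a2 UMI, and 35.1% of WT and 18.1% of KO progenitors had both Cftr and Slc12a2. In cells with a Kcne3 UMI, Slc12a2 was detected in 80.8% of WT cells, against 70.6% in cells without one, and in KO the values were 66.8% and 55.4%. For Slc12a2 in cells with and without Cftr they were 76.8% and 74.2% in WT, and 68.3% and 61.4% in KO. Kcnn4 was detected in 34.2% of WT cells with Slc12a2 and 35.8% without, and in 30.4% and 35.9% in KO. Taken singly, Slc12a2 was detected in 75.4% of WT and 63.2% of KO progenitors, Cftr in 45.7% and 26.5%, and Kcne3 in 47.0% and 68.7%. The pool joins CBC-like cells, where Kcne3 and Slc12a2 were highest, with TAC-like cells, where Kcnn4 was highest. Pairs were not counted within each class, and the part of this mixture in the pair values was not tested.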

How the data were processed

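EpCAM+ crypt cells of WT and KO mice were profiled with a 10x Genomics 3′ protocol. The authors deposited 1 matrix of raw UMI counts per genotype. Processing notes name Cell Ranger 2.1.1 and mm10, the file header names Cell Ranger 4.0.0, and the discrepancy was not resolved. Strand use is not given in the sources used here. The genes of the set and all lists were chosen with earlier results of these data known.

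Barcodes with at least 200 genes and at most 30% mitochondrial UMIs were kept. Each class score was the mean of capped z-scores (at most 4) of log1p counts per 10000 over its markers (81 in all; 1 was missing), and a cell was gated with at least 3 markers detected, a score of at least 0.5 and a lead of at least 0.25 over every other lineage; 1090 WT and 972 KO cells lay within 0.1 of the lead required. UMIs were summed per class and expressed per 1000000 UMIs (CPM), with exact Poisson intervals; ratios had exact conditional binomial intervals and shares exact Clopper-Pearson intervals. These cover counting error only. Genes with at least 50 UMIs over both matrices were tested, and 2-fold was the call. A count of 0 was read as allowing up to 3 counts. Thinning drew 1000 UMIs per cell, or 5000 for co-detection. Distal-like cells were those with distal score above proximal score. Named genes were all 8 genes, pathway genes past 2-fold, and the 3 most alike genes by Pearson correlation of log2(CPM + 10) among genes with at least 200 UMIs; other pathway genes named were chosen after their values were seen. Doublets were not removed: Scrublet called 1 WT and 0 KO cells, so it did not work, and its highest scores were removed only as an alternative. Exonic lengths came from GENCODE M21, which held 99.0% of features. Ratios and intervals were run on simulated Poisson counts. These held counting error only, with no variation between mice, so they check the computation alone. Analyses used scipy 1.17.1, scanpy 1.11.5 and leidenalg 0.10.2.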

Additional observations from a re-analysis of the deposited data

Results flagged for a closer look

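Kcnq1 had KO/WT ratios on opposite sides of 0 in different classes, at 0.23 in PC-like and -0.81 in imEC-like cells, with counting intervals that exclude 0. The difference between the classes was not tested.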

How the results depend on the processing

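No paired analysis was possible because each genotype was pooled into 1 matrix. The values rest on 1 matrix per genotype and cover counting error only. The progenitor median of the secretory genes (-0.46) was -0.21 with cells thinned to 1000 UMIs and -0.049 with means of log2(CP10k + 1). Alternatives chosen after seeing the data gave 0.45 with mean UMIs per cell and 0.031 with clusters in which markers of any other class counted against a name; in that clustering the WT progenitors were TAC clusters only and the KO progenitors a CBC cluster, Kcnq1 was at 0.031 and Slc12a2 at 0.73. That naming was run first, and counting only markers of another lineage, as the gate does, was adopted after its result was seen; it gave -0.40, with Slc12a2 at -0.79. The enterocyte median of the absorptive genes (-0.83) was -0.72 with clusters under either naming, -0.66 thinned, -0.065 as means of logs, -0.72 in proximal-like cells and -0.20 as UMIs per cell. Per cell, progenitor Kcnq1 was 0.45 and Slc26a3 0.18, and enterocyte Slc26a6 was 0.51; Slc26a6 was 0.076 in distal-like cells. Kcne3 was above 0 under all 12 progenitor alternatives (0.66 to 1.82) and all 14 enterocyte alternatives (0.11 to 1.35), and Slc9a3 was below 0 in all 14 enterocyte alternatives (-5.24 to -0.057).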

Other observations

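Barcodes over the mitochondrial limit, which no comparison used, held Kcne3 at 16.1 CPM in WT (1898 barcodes) and 44.5 in KO (4084 barcodes). Slc26a6 stood at 104 and 92.2 in these barcodes, Slc26a3 at 55.6 and 32.7, and Slc9a3 at 9.15 (25 UMIs) and 1.23 (8 UMIs). Kept cells that no gate named held Kcne3 at 60.2 CPM in WT and 132 in KO.

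Among carbonic anhydrases in enterocytes, Car4 stood at 189 CPM in WT and 241 in KO (0.35) and Car13 at 27.5 and 47.1 (0.77), while Car2 stood at 9.26 and 4.27 (-1.12) and Car8 at 8.93 and 6.01 (-0.57). The interval of Car12 spanned 0, and Car1 had 0 UMIs in both. These genes were chosen after their values were seen.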
